A study of Homo sapiens with 6 samples.

Results

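EPHA2 encodes a receptor tyrosine kinase of the Eph family, and its gene lies on chromosome 1: 16124337-16156069 (hg38, minus strand). Differentially methylated regions were taken as belonging to EPHA2 when they overlapped the gene or the stretch of about 1 kb on each side of it. Of 4344 regions in the 3 deposited lists, 9 met this rule, 3 in each list. They formed 3 distinct regions, each listed in all 3 pairs of libraries. All 9 had a higher level in the DNMT3A-overexpressing library. In the lists as a whole, 82.1%, 81.7% and 81.1% of regions were higher in pairs 1, 2 and 3, and 8.21% of 3313 distinct regions were listed in all 3 pairs. The gene was chosen from these calls, so its levels are described here without a test.

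Eph receptors sit in the cell membrane and bind ephrins, which are membrane-bound ligands on neighbouring cells. EPHA2 mainly binds the ephrin-A class, and signals through guanine nucleotide exchange factors and adaptors that act on the actin cytoskeleton and on cell adhesion. It is expressed in many epithelia and carcinomas, and in hepatocytes it is known as a cofactor of hepatitis C virus entry. CpG methylation at a promoter often accompanies silencing of its gene, whereas methylation inside a gene body is common in transcribed genes.

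DNA methylation had been measured by reduced representation bisulfite sequencing (RRBS), which cuts genomic DNA with MspI at CCGG and so samples CpG-rich fragments. The cells were HepG2, an established human liver cancer line. The overexpressing group was infected with a lentivirus carrying DNMT3A, a de novo DNA methyltransferase, and the control group (genotype WT in the labels) with a control lentivirus. Each group had 3 libraries, and each deposited list compares 1 overexpressing with 1 control library that carry the same number (a pair). Nothing in the labels states that replicates were separate cultures, so the p-values reflect a spread between libraries that may be technical. The amount of DNMT3A and the identity of the cells could not be checked from methylation calls, and RNA was not analysed here. The overexpressing libraries had 25764323 to 29924507 mapped reads and the controls 26912596 to 29269281. The lists give no reads per region, so the depth behind each level is unknown. They hold called regions only, so a place with no entry may be unchanged or uncovered.

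No listed region touched the promoter of EPHA2, so the 250 bases before the gene's start are shown with those of EPHA1, the receptor gene whose region lay closest to its start among those listed in all pairs. Both are RefSeq sequences of GRCh38.p14, written 5′ to 3′ on the minus strand, at chr1:16156070-16156319 and chr7:143408857-143409106. Capitals mark CG dinucleotides.
EPHA2: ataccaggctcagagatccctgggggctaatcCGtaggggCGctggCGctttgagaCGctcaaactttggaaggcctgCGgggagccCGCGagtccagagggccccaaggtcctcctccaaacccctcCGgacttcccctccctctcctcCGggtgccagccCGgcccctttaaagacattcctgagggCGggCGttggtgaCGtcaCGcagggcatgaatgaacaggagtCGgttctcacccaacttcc
EPHA1: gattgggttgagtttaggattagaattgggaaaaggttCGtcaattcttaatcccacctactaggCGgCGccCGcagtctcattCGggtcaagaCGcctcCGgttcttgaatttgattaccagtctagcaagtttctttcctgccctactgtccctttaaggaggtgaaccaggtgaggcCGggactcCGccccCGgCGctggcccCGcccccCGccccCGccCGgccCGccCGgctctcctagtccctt
The motifs searched were CG and CCGG, each of which reads the same on both strands, and every CCGG contains a CG. The EPHA2 sequence held 15 CG and 3 CCGG, and the EPHA1 sequence 17 CG and 5 CCGG. Among 35116 promoter sequences of the same length, 93.9% held a CG, 58.5% held a CCGG, and the median number of CG was 11. The EPHA2 promoter thus held MspI sites, but whether the libraries covered it is unknown.

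The 3 regions of EPHA2 lay together in the gene body, between 9407 and 11466 bp from the gene's start, and are called proximal, middle and distal by that distance. They spanned 2060 bp from end to end, which is 6.49% of the 31733 bp of the gene, and covered 381 bp themselves. The proximal and middle regions were 1071 bp apart and the middle and distal ones 608 bp apart. Whether they are exonic or intronic was not analysed here. Their mean methylation levels, given as fractions, were 0.351 to 0.561 in the overexpressing libraries and 0.0540 to 0.145 in the controls.

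**Figure D1:**
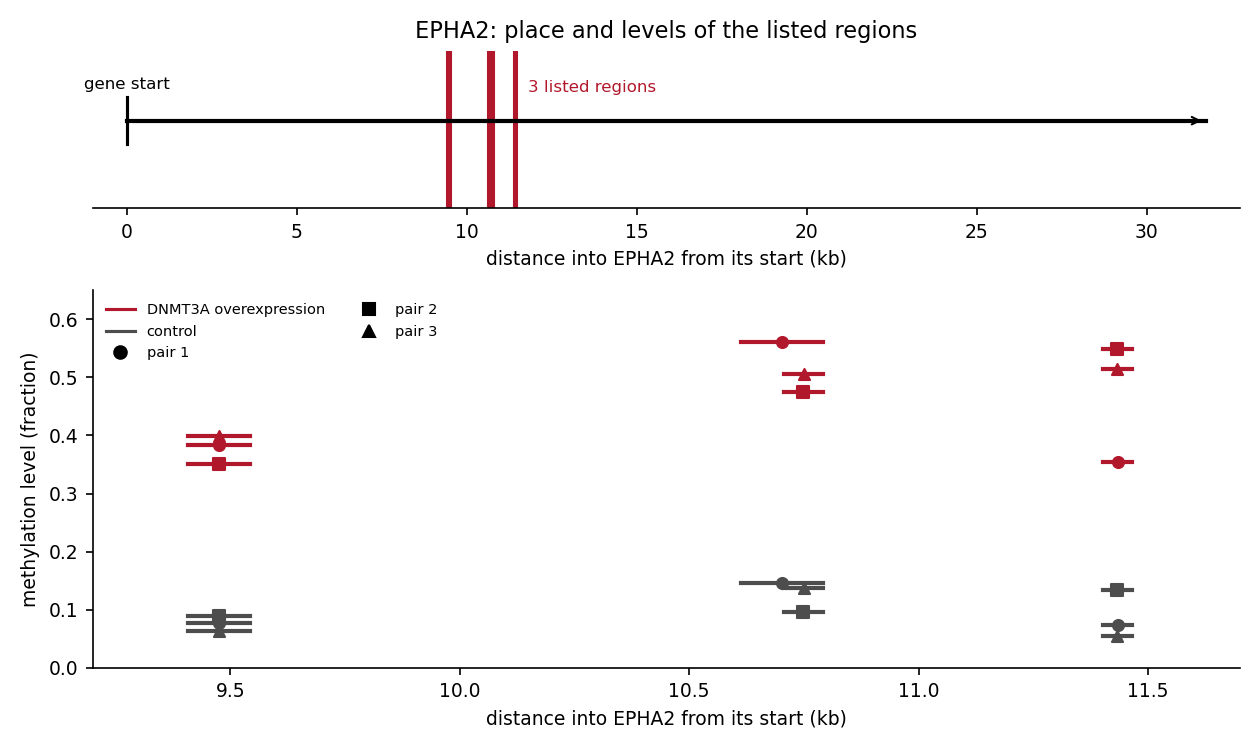
Place of the 3 listed EPHA2 regions along the gene (upper axis, kb from the gene's start) and their methylation level as a fraction (lower axes, horizontal bars span each listed region, symbols mark the pair). The overexpressing libraries lie between 0.351 and 0.561 and the controls between 0.0540 and 0.145 across a stretch of 2060 bp.

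The proximal region, at chromosome 1: 16146527-16146662, held 14 CpG sites and had the same boundaries in all 3 lists. Its level was 0.383, 0.351 and 0.399 in overexpressing libraries 1, 2 and 3, against 0.0768, 0.0894 and 0.0633 in control libraries 1, 2 and 3. All overexpressing libraries stood above all controls, and libraries of a group lay close together. Such a lack of overlap was common, with every overexpressing library above every control at 95.6% of the 272 regions listed in all pairs. The means were 0.378 ± 0.0246 in overexpressing and 0.0765 ± 0.0131 in control libraries (SD, n = 3 each). The difference averaged 0.301 ± 0.0375 (SD, n = 3 pairs), higher in 3 of 3 pairs.

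The middle region, at chromosome 1: 16145277-16145455 with all lists merged, was called over different lengths. Pair 1 listed 179 bp with 14 CpG sites, pair 2 listed 85 bp with 7 sites, and pair 3 listed 86 bp with 10 sites. The level was 0.561, 0.475 and 0.505 in overexpressing libraries 1, 2 and 3, against 0.145, 0.0955 and 0.138 in control libraries 1, 2 and 3. The groups did not overlap here either, and this region had the highest mean level of the gene in both groups. The means were 0.514 ± 0.0434 in overexpressing and 0.126 ± 0.0269 in control libraries (SD, n = 3 each), and the difference averaged 0.387 ± 0.0250 (SD, n = 3 pairs).

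The distal region, at chromosome 1: 16144603-16144668, was the smallest, with 5 or 6 CpG sites in 65 or 66 bp. Its level was 0.355, 0.548 and 0.515 in overexpressing libraries 1, 2 and 3, against 0.0735, 0.134 and 0.0540 in control libraries 1, 2 and 3. The groups did not overlap, but overexpressing library 1 stood well below libraries 2 and 3, and control library 2 above the other controls. The means were 0.473 ± 0.103 in overexpressing and 0.0873 ± 0.0420 in control libraries (SD, n = 3 each). The difference averaged 0.385 ± 0.0930 (SD, n = 3 pairs), with 0.281 in pair 1, 0.414 in pair 2 and 0.461 in pair 3.

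**Figure D2:**
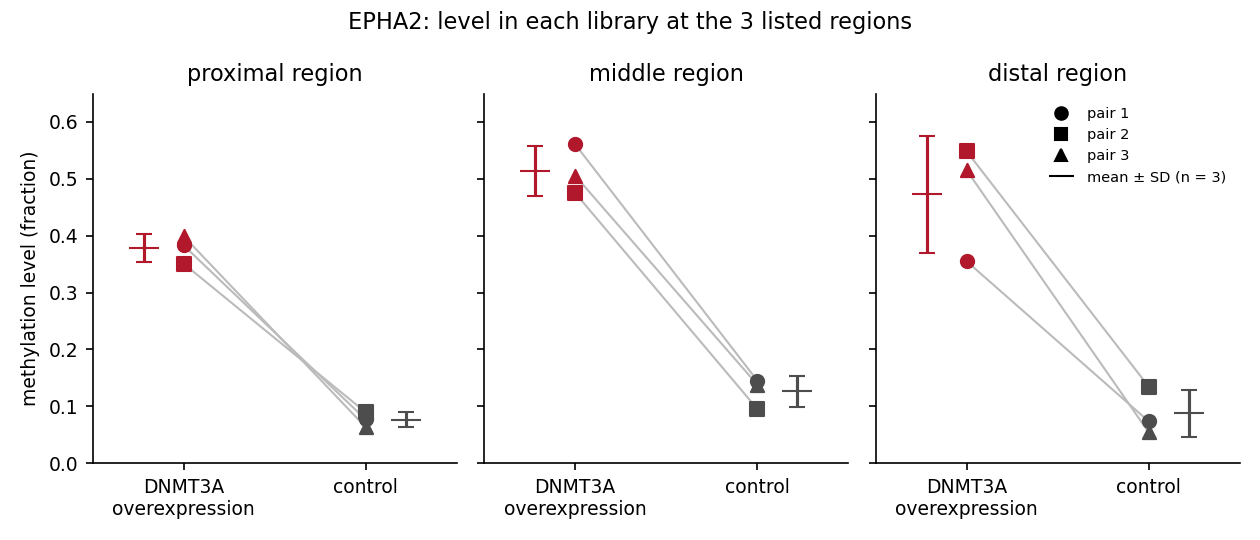
Methylation level (fraction) of the proximal, middle and distal EPHA2 regions in each of the 6 libraries, overexpression left and control right, with lines joining the libraries of a pair and bars for the mean ± SD (n = 3). Groups do not overlap in any panel, and the spread is widest in the distal region, where overexpressing library 1 stands at 0.355.

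Within the gene the 3 regions did not have the same level. The proximal region was below the middle one in both groups without overlap, at 0.351 to 0.399 against 0.475 to 0.561 in the overexpressing libraries, and at 0.0633 to 0.0894 against 0.0955 to 0.145 in the controls. Its difference was also below that of the middle region in each pair (0.306 and 0.415 in pair 1, 0.261 and 0.380 in pair 2, 0.336 and 0.367 in pair 3). The gap in the controls was narrow, between 0.0894 and 0.0955, both from control library 2. The lists also averaged the middle region over different lengths. The distal region overlapped both of the others in each group, so its place in the order is not fixed by these values.

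Averaged over the listed EPHA2 regions with weights by CpG sites, the level was 0.454, 0.427 and 0.458 in overexpressing libraries 1, 2 and 3. In control libraries 1, 2 and 3 it was 0.105, 0.101 and 0.0864. These means differed by 0.349 ± 0.0227 (SD, n = 3 pairs). With each region counted once, the overexpressing levels were 0.433, 0.458 and 0.473, so which library was lowest depended on the weights. The differences were then 0.334, 0.351 and 0.388 in pairs 1, 2 and 3. No pair was lowest at all regions: pair 1 had the smallest difference at the distal region, pair 2 at the proximal one and pair 3 at the middle one.

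Compared with the other regions of their lists, the EPHA2 regions started low. The median control level of the higher regions was 0.184, 0.192 and 0.209 in pairs 1, 2 and 3, and all 9 EPHA2 control levels were below it. Between 14.4% and 41.0% of the higher regions of a list had a lower control level than an EPHA2 region. The median difference of the higher regions was 0.264, 0.266 and 0.265, and 8 of the 9 EPHA2 differences were above it. The exception was the proximal region of pair 2, at 0.261. The largest, 0.461 at the distal region of pair 3, ranked 85 of 1158.
CpG density did not set the regions apart to the dense side. The regions had 7.69 to 11.6 CpG sites per 100 bp, against medians of 10.8, 10.7 and 10.9 in the higher regions of pairs 1, 2 and 3. Only the middle region of pair 3 was above its list's median. In the authors' area score the EPHA2 regions ran from 21.8 (distal region, pair 1) to 111 (proximal region, pair 3). At the distal region, 3.62%, 18.4% and 25.8% of the higher regions in pairs 1, 2 and 3 had a smaller score. In the same order, the shares were 75.4%, 19.2% and 44.2% at the middle region and 74.4%, 65.7% and 78.7% at the proximal one.

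**Figure D3:**
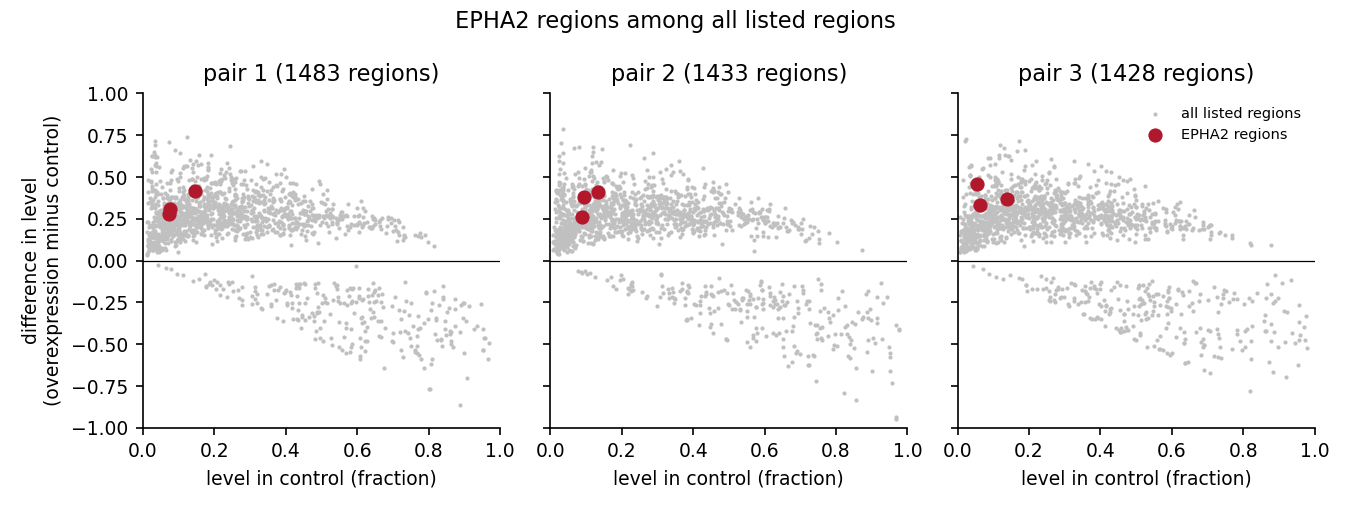
Difference in level (overexpression minus control) against the control level (fraction) for every listed region of each pair, with the EPHA2 regions in red. The EPHA2 regions sit at control levels up to 0.145 and at differences of 0.261 to 0.461.

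Few genes held as many regions that were listed every time. Of 2354 genes with a listed region within 1 kb, 7 had at least 3 distinct regions listed in all 3 pairs. These were GNG7 with 6, CACNA1H with 5, and BCL11B, BCOR, NFIX, SLCO4A1 and EPHA2 with 3 each. EPHA2 was the shortest of them, at 31.7 kb against 48.2 kb for SLCO4A1 and up to 191.5 kb for GNG7. In EPHA2 all 3 distinct regions were listed in every pair, whereas CACNA1H, the gene of a T-type calcium channel, had 5 such regions of 22 and NFIX, the gene of a nuclear factor I protein, had 3 of 4. Of the 86 genes with exactly 3 distinct regions, EPHA2 was the 1 with all of them in every list. The number 3 is EPHA2's own count and the gene was chosen from these calls, so these rankings are descriptions. By total number of distinct regions CACNA1H and PTPRN2 led with 22 each, followed by GSE1 with 13, and 59 genes had more than EPHA2. The 3 EPHA2 regions also lay closest together: the next 3 consecutive regions higher in all pairs, in GNG7, spanned 9595 bp and those after it, in CACNA1H, 16838 bp.

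The genes around EPHA2 were looked up in the same lists. Of the 10 other protein-coding genes within 200 kb, 0 had a listed region within 1 kb, which is near the share of 8.85% over all protein-coding genes. They included FAM131C and ARHGEF19, the neighbours on either side, at 50686 and 41785 bp. On the side away from the promoter the nearest listed region was 347.2 kb from the distal region. On the promoter side a region at chromosome 1: 16167699-16167854, 11630 bp outside EPHA2, was listed in pair 1 only. This region lay in or within 1 kb of the antisense noncoding gene EPHA2-AS1. It stood at 0.552 in overexpressing library 1 and 0.293 in control library 1. Another, at chromosome 1: 16227914-16227966, was listed in pair 2 only and was lower, at 0.637 in overexpressing library 2 and 0.818 in control library 2. How many places between these were covered by reads is unknown.

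The proximal EPHA2 region had the most CpG sites on average. The regions most like it were sought among the other 269 regions listed in all pairs. Only regions with a gene within 1 kb were eligible, and likeness was the Euclidean distance over the levels of the 6 libraries. The nearest, at a distance of 0.0656, was in NFIX (chromosome 19: 13051879-13051997), with a mean level of 0.355 ± 0.0304 in overexpressing and 0.0572 ± 0.0142 in control libraries (SD, n = 3 each). Next came regions in FOXK1, a forkhead factor gene (distance 0.0668), TMEM175, a lysosomal potassium channel gene (0.0722), KLC4, a kinesin light chain gene (0.0766), and RIPK4, a protein kinase gene (0.0799). Their mean levels ran from 0.364 to 0.406 in overexpressing and from 0.0652 to 0.112 in control libraries. The FOXK1 region also lay within 1 kb of the noncoding gene LOC124901581.

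Other genes of the Eph system were examined in 3 lists, of 13 further receptors, 8 ephrins and 32 signalling partners. Of these 53 genes, 9 had only higher regions in at least 1 pair and 1 had only a lower one. This is 18.9% with a listed region, against 8.85% of 20037 protein-coding genes. The genes of the lists were also longer, with a median of 87.6 kb against 24.1 kb, and the part of gene length in this share was not tested. The lists were chosen with earlier results of these data known, so the share is a description only. The share of genes with only higher regions was 6.47% and with only lower ones 1.74% over all protein-coding genes.

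Among receptors, EPHA1 and EPHB1 had higher regions and EPHA3 a lower one. EPHA1, which binds ephrin-A ligands, was listed in all pairs at chromosome 7: 143408253-143408345, 511 bp into the gene from its start and within 1 kb of EPHA1-AS1. Its level was 0.416, 0.434 and 0.415 in overexpressing libraries 1, 2 and 3, against 0.156, 0.194 and 0.187 in control libraries 1, 2 and 3. The groups did not overlap, and EPHA1 rose by 0.243 ± 0.0160 (SD, n = 3 pairs). Limma on the logit scale gave adjusted p = 3.52e-05 without the replicate number as a block and 0.000121 with it. Only regions that every pair had already called were fitted. The p-values of EPHA1, EFNA2 and ARHGEF16 are therefore not independent of those calls. EPHA3 was lower in pair 2 only (chromosome 3: 89466551-89466690), at 0.363 in overexpressing library 2 and 0.760 in control library 2. EPHB1, a receptor for ephrin-B ligands, had a region 218 bp into the gene, at 0.159 in overexpressing library 3 and 0.0691 in control library 3. It had another at 1352 bp, at 0.741 in overexpressing library 2 and 0.387 in control library 2.

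Among ephrins, EFNA2 and EFNB2 had higher regions. EFNA2, the gene of the ligand ephrin-A2, was listed in all pairs at chromosome 19: 1289768-1289883. Its level was 0.465, 0.441 and 0.388 in overexpressing libraries 1, 2 and 3, against 0.245, 0.238 and 0.223 in control libraries 1, 2 and 3. The groups did not overlap, and EFNA2 rose by 0.196 ± 0.0282 (SD, n = 3 pairs). Its limma adjusted p was 0.000202 without the replicate block and 0.000255 with it. EFNB2, the gene of ephrin-B2, was listed in pair 2 only (chromosome 13: 106535043-106535207), at 0.588 in overexpressing library 2 and 0.378 in control library 2. Without pair 2, 1 ephrin gene would be listed as higher and 0 receptor genes as lower.

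Among signalling partners, ARHGEF16, VAV2, VAV3, SRC and CRKL had higher regions and none a lower one. ARHGEF16 encodes ephexin-4, an exchange factor that binds EPHA2. Its region at chromosome 1: 3480471-3480661, near the end of the gene, was listed in all pairs, at 0.257, 0.325 and 0.313 in overexpressing libraries 1, 2 and 3, against 0.109, 0.111 and 0.121 in control libraries 1, 2 and 3. The groups did not overlap, and ARHGEF16 rose there by 0.185 ± 0.0332 (SD, n = 3 pairs). Its limma adjusted p was 5.86e-05 without the replicate block and 0.00016 with it. Another ARHGEF16 region was higher in pairs 2 and 3, by 0.284 and 0.225, and a further one in pair 2, by 0.297.
VAV3, an exchange factor gene, had levels close to those of EPHA2 in the pairs that listed it (chromosome 1: 107681746-107681905). They were 0.395 and 0.508 in overexpressing libraries 1 and 2, against 0.0731 and 0.139 in control libraries 1 and 2. VAV2, a related exchange factor gene, was listed in pairs 1 and 3 at 0.260 in both overexpressing libraries, against 0.0519 and 0.0449 in control libraries 1 and 3, and had a second region in pair 3. SRC, a tyrosine kinase gene, was higher by 0.170 in pair 2, and CRKL, an adaptor gene, by 0.262 in pair 3.

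The limma-tested regions of these Eph-list genes, 3 in number, all rose. Of the 272 regions listed in all pairs, 96.0% were called higher and 0.735% lower at the threshold of 0.05 on the adjusted p. Only regions that every pair had called entered this fit, which makes it dependent on those calls. The mean control levels of EPHA1, EFNA2 and ARHGEF16 were 0.179, 0.235 and 0.114, and those of the proximal, middle and distal EPHA2 regions 0.0765, 0.126 and 0.0873. EPHA1, EFNA2 and ARHGEF16 differed by 0.185 to 0.243 at their tested regions, below the 0.301 to 0.387 of the EPHA2 regions. This compares values without a test, and EPHA2 was chosen from these calls. Among regions listed in 1 or 2 pairs, EPHB1, VAV3 and VAV2 each had a mean difference in the EPHA2 range, at 0.354, 0.346 and 0.306. The other higher regions of these lists were below that range, and EPHA3 had a difference of -0.397.

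**Figure D4:**
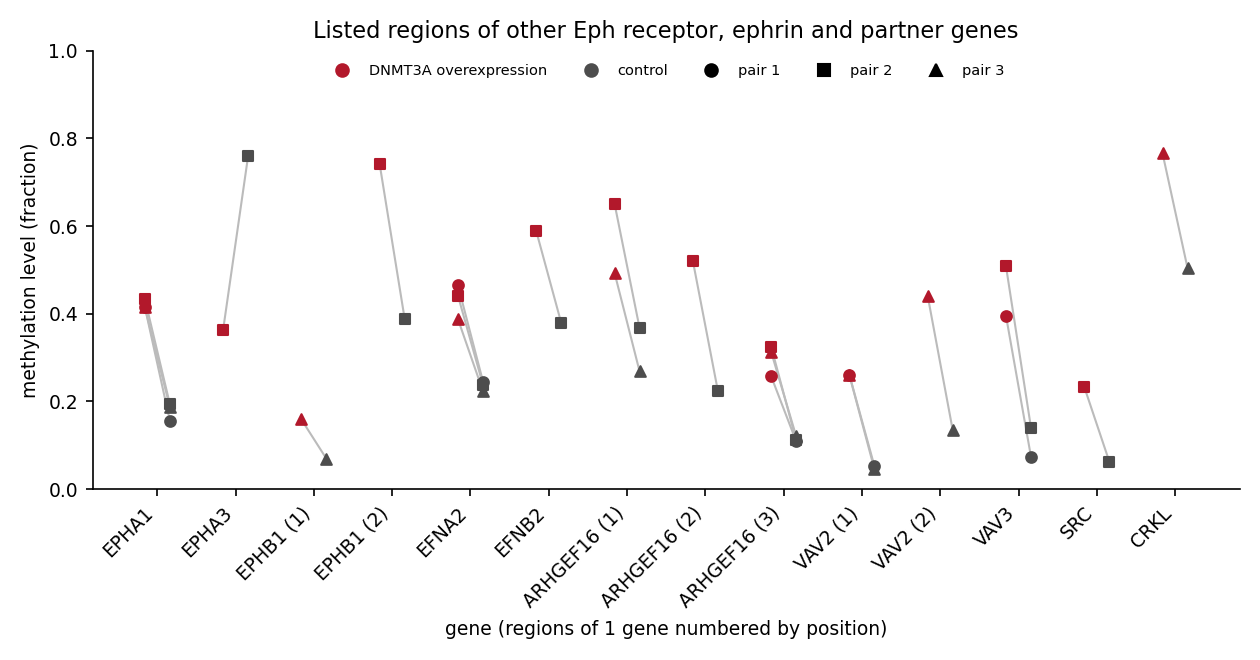
Methylation level (fraction) at every listed region of the other Eph receptor, ephrin and partner genes, overexpression left and control right of each gene, with lines joining the libraries of a pair. EPHA3 alone is lower in overexpression, at 0.363 against 0.760, and EPHA1, EFNA2 and ARHGEF16 each have a region with all 6 libraries.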

How the data were processed

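The data were 3 lists of differentially methylated regions from RRBS of HepG2 cells, and a summary of mapped reads. Per the labels' protocols, DNA was cut with MspI, ligated to methylated adapters and treated with bisulfite. Per the submitters' processing notes the genome build was hg38. For the aligner, region caller, thresholds, bisulfite conversion and reads per region, nothing is given in the sources used here. Per the file headers, the authors gave each region's mean level in both libraries (a fraction), its number of CpG sites (a count), a signed difference and an area score. The deposited read counts and mapping percent values describe whole libraries.

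Overlaps of at least 1 bp merged regions across lists, and a merged region was assigned to every RefSeq gene (GRCh38.p14) within 1 kb. Tables were made with pandas 2.3.3. Regions listed in all pairs were fitted in R 4.3.3 with limma 3.58.1, using the logit of the level with an offset of 0.01 and Benjamini-Hochberg adjustment over all 272. This step was tested on simulated levels that did not mimic the calling of regions, so that test does not cover the selection. As a pairing check, each library's deviation from its group mean was correlated with that of its same-numbered partner, which gave 0.287, 0.235 and 0.172 over the 272 regions. All exceed 0.1, but both levels of a pair were averaged over that list's own boundaries, which can differ between lists. Such shared boundaries can raise these correlations, so the check cannot show that the libraries were paired. The replicate numbers were treated as pairing because the deposited lists use these pairs. The main fit had no replicate block. Both levels of a region come from the reads used to call it, which tends to enlarge listed differences.

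The members and lists were chosen with earlier results of these data known. Named genes were EPHA2, Eph-list genes with a listed region, neighbours within 200 kb, the 5 genes with the most similar region, and those with the most regions.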

Additional observations from a re-analysis of the deposited data

How the results depend on the processing

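Of 103 alternative values, 99 stayed within the range set for no change, 4 moved and 0 reversed. Several settings could not change the EPHA2 counts, so the 99 is not a measure of robustness. The regions lay well inside the gene, with a smallest difference of 0.261 and at least 5 CpG sites. Cuts at a difference of 0.2 or at 5 CpG sites therefore removed none. Leaving out a pair left 6 of 9 regions by construction, which still counted as no change. With at least 10 CpG sites, 5 higher EPHA2 regions remained of 9, and with an absolute difference of at least 0.3, 7. The mean EPHA2 difference ranged from 0.337 to 0.360 when a pair was left out, and was 0.358 with each region counted once. When a pair was left out, the numbers ran from 0 to 1 for receptors with only lower regions and for all 53 genes with only lower regions, and from 1 to 2 for ephrins with only higher ones. The low ends come without pair 2, whose list alone holds the EPHA3 and EFNB2 regions. With the replicate number as a block, limma called 264 regions higher and 2 lower, against 261 and 2 without the block. The block changed no call for EPHA1, EFNA2 or ARHGEF16, which had adjusted p-values of 0.000121, 0.000255 and 0.00016 with it. The reads behind each region are unknown, so no coverage minimum was tried. The distal EPHA2 region, with 5 or 6 CpG sites, had the widest spread between pairs.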

Other observations

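The number of CpG sites given for a region depended on the list as well as on the boundaries. In the middle EPHA2 region pairs 2 and 3 shared an end and differed by 1 bp at the start, yet 7 and 10 sites were counted. Among regions with identical boundaries in 2 lists, the number of sites differed in 5 of 127 between pairs 1 and 2, in 2 of 113 between pairs 1 and 3, and in 4 of 126 between pairs 2 and 3.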
